A study of Saccharomyces cerevisiae with 12 samples.

Results

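The genes described here are the 81 nuclear genes of budding yeast (Saccharomyces cerevisiae) that encode the protein parts of the large, 60S, ribosomal subunit. They were chosen by name from the 7127 features of a gene count table: 76 have an R64 symbol of the RPL type and 5 encode the acidic stalk (RPP0, RPP1A, RPP1B, RPP2A and RPP2B). All 81 passed the filter on low counts, which left 5990 features for testing. They form 35 pairs of paralogs, named A and B, and 11 genes without such a partner. Introns interrupt 53 of them, and 13 lie on chromosome IV.

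The large subunit joins amino acids into protein at its peptidyl transferase centre and leads the new chain out through a tunnel. Its proteins are made in matched amounts from many scattered genes, most of which are bound by Rap1 and its partners Fhl1 and Ifh1 and are driven by TOR and protein kinase A signalling when cells grow fast. Many stay as paralog pairs from the ancient duplication of the yeast genome, so that 1 protein, or a pair of near-identical proteins, comes from genes at different places. Messenger RNAs of this group are known to fall together when growth slows or cells are stressed.

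Poly(A) RNA was sequenced from haploid cells of mating type a in 12 libraries, 3 in each of 4 groups. In all groups the centromere of chromosome IV, CEN4, lies between lox sites marked with KanMX, and a Cre recombinase joined to an estrogen-binding domain is expressed from a promoter labelled GDP with a LEU2 marker; such a recombinase is switched on by estradiol and can then remove the DNA between lox sites. A strain called S10D-labelled here was kept for 3 hours with estradiol (S10D-labelled E2) or with ethanol, its solvent (S10D-labelled EtOH). Its label puts, at hht2-hhf2, the construct [HHT-S10D-HHFS] with URA3; S10D in histone H3 is aspartate in place of a serine that is phosphorylated in mitosis. Beside Ade1, leu2-x and a bar1 deletion (bar1-delta-), the label also lists TetR-mRFP, lys4::LacO:hphNT1, trp1::TetO:TRP1 and, at the HIS3 gene, his3::LacR-GFP:HIS3. The reference strain received the same treatments (reference E2 and reference EtOH) and carries met15-delta-0 and ura3-delta-0 as well as leu2-delta-0 and his3-delta-1. Differences between the strains cannot be told apart by allele, and no group has a CEN4 without lox sites, so the effect of estradiol or Cre and that of losing CEN4 cannot be told apart either. Nothing in the labels tells separate cultures from repeated preparations, so p-values measure only how much these libraries vary.

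Libraries held 9362173 to 11806239 counts. URA3 had 1212 to 1529 counts in S10D-labelled libraries and 0 to 5 in reference libraries, as labelled. BAR1 had 3162 to 3787 counts in S10D-labelled libraries although the label lists its deletion, against 6829 to 9265 in reference libraries. All 6 markers of mating type a were detected, with summed counts of 19952 to 24338 in S10D-labelled libraries and 36803 to 46667 in reference libraries. The 4 markers of mating type alpha summed to 460 to 587 counts in S10D-labelled libraries and 624 to 816 in reference libraries. Of these, SAG1 had 404 to 679 counts, STE3 had 44 to 114 and the alpha pheromone genes had at most 30. Reference EtOH replicate 3 stood apart. The non-coding SCR1 had 2360 counts there, against 780 and 876 in the other reference EtOH libraries, and the mitochondrial ribosomal RNA 21S_RRNA had 1771 counts, against 297 and 459. In that library RPL38 lay 1.63 above the mean of the other 2 on the log2 scale, RPL41B 0.86 above and RPP2B 0.80 above, while RPL22B lay 0.59 below. The 28 members without an intron deviated by a median of 0.24 there, and the 53 with an intron by a median of 0.02. For the members, calls that change without this library, and named values that move by over 1.5 times, are given both ways.

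Levels were expressed per kilobase of coding sequence, which allows genes to be compared. With all libraries, RPL41B had the highest mean level in reference EtOH and RPL15B, the minor source of Rpl15, the lowest. In CPM (counts scaled to library size by TMM) per kilobase, RPL41B had means of 2803 in S10D-labelled E2, 2616 in S10D-labelled EtOH, 4133 in reference E2 and 6146 in reference EtOH. The last mean and the top rank depend on reference EtOH replicate 3: before division by length, RPL41B had 376, 376 and 685 CPM in replicates 1, 2 and 3. RPL15B had 59.6 in S10D-labelled E2, 65.5 in S10D-labelled EtOH, 68.4 in reference E2 and 90.1 in reference EtOH. The coding sequences of RPL41A and RPL41B are the shortest of the group, 78 bases, so their values per kilobase are the least certain, because the length over which reads were counted is not given in the sources used here. The sequences (RefSeq, build R64; RPL41A at chrIV:130407-130484 and RPL41B at chrIV:221724-221801, both on the minus strand) are shown because they show how close a pair can be, with the only differing base in capitals.
RPL41A: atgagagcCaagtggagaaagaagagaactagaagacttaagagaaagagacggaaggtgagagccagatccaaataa
RPL41B: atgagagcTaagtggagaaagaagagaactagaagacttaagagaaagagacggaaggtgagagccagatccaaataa
Counted from 1 at the start codon, the change between RPL41A and RPL41B is C9T. Coding identity within the 35 pairs ran from 68.9% to 99.4% with a median of 93.2%. In 12 members, the pairs of RPL1, RPL4, RPL7, RPL11, RPL35 and RPL41, over 50% of all 50-base stretches of coding sequence also occur elsewhere in coding sequences, so the split of reads between their A and B copies is uncertain.

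Most messenger RNAs of the large subunit were lower with estradiol than with ethanol in the reference strain. By edgeR's quasi-likelihood test (adjusted p under 0.05 over all genes), 73 of the 81 members fell, none rose and 8 were not called. Of all genes tested, 44.6% were called, 22.4% as higher and 22.2% as lower. At an unadjusted p under 0.05 no member was higher either, and DESeq2 called 74 lower and 0 higher. The median member had a log2 fold change of -0.54, where the median of all genes tested was 0.00. Together the members held 5.14 ± 0.20% of nuclear counts in reference E2 and 7.14 ± 0.45% in reference EtOH (SD, n = 3 each; exact 2-sided permutation test, p = 0.1, the smallest that 3 against 3 can give). The small subunit genes gave a like picture, with 52 of 57 lower and a median of -0.54. Of the 5 non-coding RNAs tested as signs of the library, among them SCR1 and 21S_RRNA, 2 fell as well in reference E2. The median of all 5 was -1.10, with reference EtOH replicate 3 included. SCR1 had 60.4, 48.9 and 61.3 CPM in reference E2, against 84.6, 75.2 and 203.9 CPM in reference EtOH. The part of these RNAs in the result was not tested. Bulk RNA cannot tell apart fewer cells that express a gene from less RNA per cell.

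**Figure D1:**
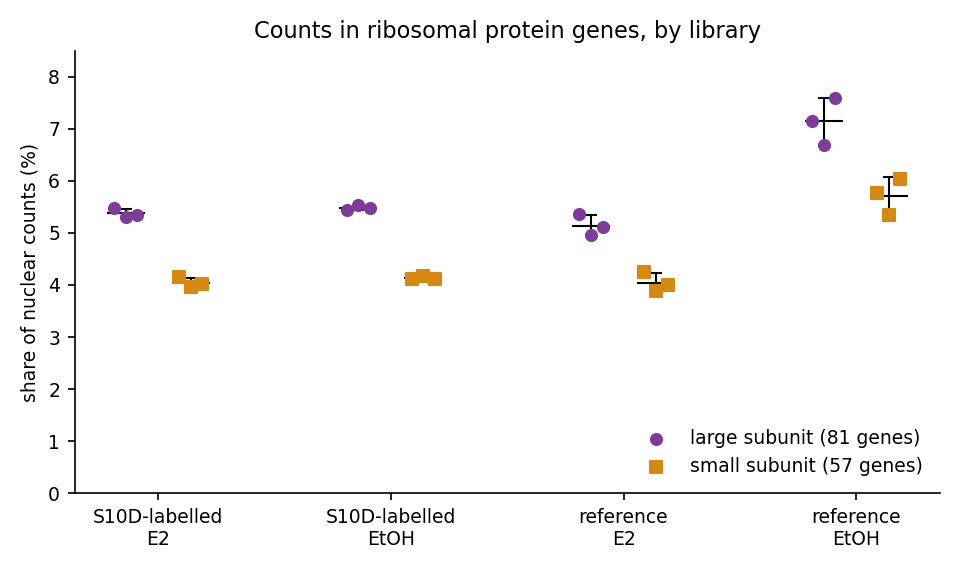
Share of nuclear counts (%) in the 81 large subunit genes (circles) and the 57 small subunit genes (squares) in each of 12 libraries, with the mean and SD of 3. The reference EtOH libraries lie highest for both subunits, with a large subunit mean of 7.14%, and the other 3 groups lie between means of 5.14% and 5.49%.

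Most of the 11 genes that are the only source of their protein moved by nearly the same amount. All 11 fell in reference E2, and 10 of them had log2 fold changes between -0.65 and -0.51. RPL3, which encodes a protein that reaches into the peptidyl transferase centre, had 2038, 2065 and 2112 CPM in reference E2, against 2745, 2831 and 3365 CPM in reference EtOH (log2 fold change -0.52 ± 0.06 SE, adjusted p = 1.02e-05, edgeR). RPL5, whose protein carries 5S ribosomal RNA into the subunit, had 1428, 1515 and 1457 CPM in reference E2, against 2031, 2079.9 and 2150.2 CPM in reference EtOH (-0.51 ± 0.04). The E2 libraries of both genes lay below every EtOH library.

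RPL25 and RPL39 encode proteins of the exit tunnel, Rpl25 at its rim, where targeting factors dock, and Rpl39 inside it. RPL25 had 855, 826 and 829 CPM in reference E2, against 1232, 1198 and 1433 CPM in reference EtOH (-0.62 ± 0.06). RPL39 had 553, 512 and 495 CPM in reference E2, against 774, 758 and 774 CPM in reference EtOH (-0.56 ± 0.05). RPL28, known as the gene in which changes give resistance to cycloheximide, had 1199, 1092 and 1104 CPM in reference E2, against 1868, 1661 and 1737 CPM in reference EtOH (-0.63 ± 0.05). The groups were separate for all 3 genes and close to each other in fold.

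The others of this class did likewise. RPL29, whose loss yeast survives, had 509.8, 436 and 467 CPM in reference E2, against 741, 697 and 774 CPM in reference EtOH (-0.65 ± 0.06). RPL30, whose protein blocks the splicing of its own transcript, had 1163, 1007 and 1077 CPM in reference E2, against 1548, 1424 and 1728 CPM in reference EtOH (-0.53 ± 0.07). RPL32 had 1007, 975 and 1002 CPM in reference E2, against 1439, 1396 and 1402 CPM in reference EtOH (-0.51 ± 0.04). In each of them every E2 library was the lower one. RPL10, which completes the subunit, had 1606, 1566 and 1602 CPM in reference E2, against 2180.2, 2086 and 2544 CPM in reference EtOH (-0.51 ± 0.06).

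RPL38 fell furthest of the single genes, by a log2 fold change of -1.32 ± 0.39 (edgeR, adjusted p = 0.0204). Its levels were 478, 444 and 458 CPM in reference E2, against 704, 651 and 2099.6 CPM in reference EtOH. The groups did not overlap, and replicate 3 of EtOH was far above the other EtOH libraries. Without that library the fold change was -0.56, close to the other single genes (adjusted p = 1.52e-11). With all EtOH libraries kept, the call was lost when reference E2 replicate 2 (adjusted p = 0.0572) or 3 (0.0558) was left out.

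Among the paired genes, RPL42B, RPL23B and RPL11A had the largest decreases with all libraries. RPL42B, the major source of a protein at the ribosome's exit site for transfer RNA, had 793, 599 and 638 CPM in reference E2, against 1537, 1153 and 2056 CPM in reference EtOH (log2 fold change -1.22 ± 0.17, adjusted p = 0.000172, edgeR). RPL23B, which encodes a protein of the face that meets the small subunit, had 754, 652 and 666 CPM in reference E2, against 1236, 1099.8 and 1521 CPM in reference EtOH (-0.90 ± 0.09). RPL11A, for a protein that binds 5S ribosomal RNA, had 212, 199 and 221 CPM in reference E2, against 323, 304 and 533 CPM in reference EtOH (-0.88 ± 0.17). All 3 genes were lower in every E2 library. Leaving out reference EtOH replicate 3 moved RPL11A to -0.57, and the call stayed (adjusted p = 1.28e-11).

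Of the stalk, whose flexible arms bring elongation factors to the ribosome, 4 of 5 genes fell in reference E2. The anchor protein gene RPP0 had 1469, 1422 and 1481 CPM in reference E2, against 2059, 2007 and 2488 CPM in reference EtOH (log2 fold change -0.58 ± 0.06, adjusted p = 6.07e-06, edgeR). RPP1B, which encodes an arm protein, had 657, 659.8 and 662 CPM in reference E2, against 759.7, 721 and 742 CPM in reference EtOH (-0.17 ± 0.04), a smaller step without overlap. The other arm proteins come from RPP1A, RPP2A and RPP2B. RPP2A had 456, 439 and 446 CPM in reference E2, against 622, 631 and 790.4 CPM in reference EtOH (-0.61 ± 0.08). RPP1A had 815, 682 and 746 CPM in reference E2, against 876, 781 and 1087 CPM in reference EtOH (-0.29 ± 0.10, adjusted p = 0.0304). Libraries overlapped for RPP1A and not for RPP2A, and the RPP1A call was lost without reference E2 replicate 2 (adjusted p = 0.123) or 3 (0.0767). Without EtOH replicate 3 the RPP1A value was -0.15 (adjusted p = 0.048). RPP2B was not called: it had 1083, 921 and 999 CPM in reference E2, against 1172, 1056 and 1939.8 CPM in reference EtOH (-0.47 ± 0.18, adjusted p = 0.0513). Its groups overlapped, and without EtOH replicate 3 the change was -0.15 and passed the test (adjusted p = 0.0132).

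Members on chromosome IV, whose centromere is flanked by lox sites, changed less. The 13 members on chromosome IV had a median log2 fold change of -0.18 in reference E2, and 7 of them fell. The 68 members on other chromosomes had a median of -0.54, and 66 fell. Chromosome IV genes other than ribosomal protein genes had a median of 0.13, against -0.01 for such nuclear genes on other chromosomes. Of the 8 members not called, 6 lie on chromosome IV (RPL13A, RPL27B, RPL31A, RPL35B, RPL41B and RPP2B), and the other 2 are RPL18B on XIV and RPL22B on VI. The smallest called changes, beside RPP1B, were also on chromosome IV. RPL4B, for a protein with a long arm into the exit tunnel, had 259.8, 279 and 263 CPM in reference E2, against 289, 290.1 and 338 CPM in reference EtOH (-0.19 ± 0.06, or -0.12 without EtOH replicate 3). RPL35A had 138, 130.2 and 127 CPM in reference E2, against 155, 135 and 158 CPM in reference EtOH (-0.18 ± 0.06), and its libraries overlapped. RPL37B had 793, 712 and 753 CPM in reference E2, against 868, 804 and 872 CPM in reference EtOH (-0.17 ± 0.05). Each of these 3 calls was lost without some single library: RPL4B without reference E2 replicate 1 (adjusted p = 0.0826) or 3 (0.0756), RPL35A without reference EtOH replicate 1 (0.0976) or reference E2 replicate 2 (0.099) or 3 (0.126), and RPL37B without reference E2 replicate 2 (0.0614). The groups by chromosome were not tested against each other as groups. Without EtOH replicate 3, 77 members fell and none rose (52.1% of all genes called, 26% lower), 9 of 13 on chromosome IV and 68 of 68 elsewhere. The 4 added calls were RPL18B (-0.15), RPL22B (-0.46), RPL27B (-0.22) and RPP2B (-0.15).

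**Figure D2:**
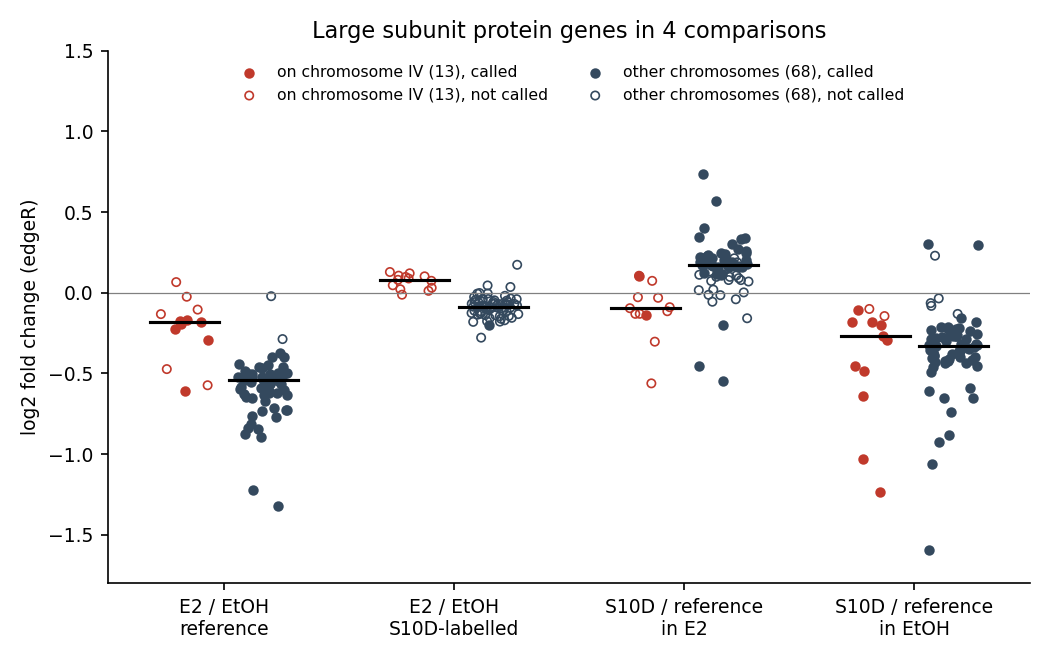
Log2 fold changes of the 81 members in 4 comparisons, from the edgeR fit of all 12 libraries; filled points were called at adjusted p under 0.05, bars mark medians, and the vertical axis is log2. In reference E2 against EtOH the 13 chromosome IV genes have a median of -0.18 and the 68 others a median of -0.54.

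Paralogs give the same comparison with a partner in the same cell, since the ratio of A to B counts in a library does not depend on its depth. In 7 pairs exactly 1 copy lies on chromosome IV: RPL4, RPL12, RPL13, RPL27, RPL31, RPL37 and RPP2. In reference E2 against EtOH, the chromosome IV copy changed less downward than its partner in 7 of 7 pairs, by a median log2 difference of 0.43 (range 0.18 to 0.62). limma's test on log2(A/B) was adjusted over the 61 A/B-named pairs of the table: the 35 member pairs, 24 small subunit pairs and 2 others. A share called among the 61 is thus mostly that of ribosomal protein genes, members included. The test called 6 of the 7 pairs above, and 31.1% of the 61 pairs. Of the 25 member pairs with no copy on chromosome IV it called 4 (RPL2, RPL15, RPL18 and RPL23), and of the 3 with both copies there (RPL35, RPL41 and RPP1) it called 0, also at an unadjusted p under 0.05.

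RPL13A on chromosome IV and RPL13B on chromosome XIII encode a protein of the subunit's outer surface. RPL13A had 746, 711 and 737 CPM in reference E2, against 721, 686 and 689.7 CPM in reference EtOH, with overlapping groups (log2 fold change 0.07 ± 0.04, not called). RPL13B had 895, 889 and 923 CPM in reference E2, against 1244, 1218 and 1361 CPM in reference EtOH, with every E2 library lower (-0.50 ± 0.04). The A/B ratio was 0.834, 0.800 and 0.798 in reference E2, against 0.579, 0.564 and 0.507 in reference EtOH. The pair's log2 ratio differed by 0.56 ± 0.05 (limma, adjusted p = 3.06e-06).

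RPL31 and RPL12 showed the same with unlike copies in the lead. Rpl31 sits at the rim of the exit tunnel, and its chromosome IV gene RPL31A had 1143, 1037 and 1121 CPM in reference E2, against 1180.4, 1120.0 and 1248 CPM in reference EtOH. Its partner RPL31B on chromosome XII had 294, 270.3 and 282 CPM in reference E2, against 512, 452 and 436 CPM in reference EtOH. The libraries overlapped for RPL31A and not for RPL31B, and the log2 A/B ratio differed by 0.62 ± 0.08 (limma, adjusted p = 7.54e-05). For RPL12, which encodes a protein at the base of the stalk, the chromosome IV copy is B, and the A/B ratio was 0.478, 0.464 and 0.470 in reference E2, against 0.641, 0.624 and 0.633 in reference EtOH (log2 difference -0.43 ± 0.03, adjusted p = 1.46e-06). The ratios of the groups were apart by far more than their spread.

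RPL37 (-0.36 ± 0.03), RPL4 (-0.35 ± 0.04) and RPL27 (-0.56 ± 0.18), all with B on chromosome IV, were called as well, with limma adjusted p of 4.67e-06, 7.55e-05 and 0.0346. The RPL27 ratio depended on EtOH replicate 3: it was 1.09, 1.12 and 1.09 in reference E2, against 1.34, 1.34 and 2.37 in reference EtOH, and its log2 difference without that library was -0.28. Leaving out any of the reference E2 or S10D-labelled libraries instead ended the RPL27 call, with adjusted p between 0.0521 and 0.101. RPP2 was not called with all libraries (-0.18 ± 0.11, adjusted p = 0.295) and was called without EtOH replicate 3 (-0.33, adjusted p = 0.000362). Without it, 15 of the 35 member pairs were called against 10 with all libraries, and 41% of the 61 pairs. Of the 4 called pairs with no copy on chromosome IV, RPL18 (A on XV, B on XIV) differed most, by -0.58 ± 0.12 (adjusted p = 0.00364), or -0.40 without EtOH replicate 3. The A/B ratio of RPL18 was 1.55, 1.6 and 1.53 in reference E2, against 2, 2.11 and 3 in reference EtOH, separate but with replicate 3 of EtOH far off. The B copy of RPL18 had 467, 434 and 449.8 CPM in reference E2, against 526, 474 and 372 CPM in reference EtOH. RPL15 (-0.39 ± 0.11, or -0.24 without EtOH replicate 3) lost its call without reference E2 replicate 2 (adjusted p = 0.0724) or 3 (0.0978). The RPL4 copies share 72.7% of their 50-base stretches, so its ratio is uncertain, while those of RPL13 share 0.181% and those of RPL31 none.

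The RPL13 promoters are shown because the copies differ in response while both hold matches to the core of the Rap1 site. The motif searched was ACCCNNACA on both strands. Capitals mark it, read on either strand, in stretches of RefSeq build R64 that are written in the direction of the gene (RPL13A at chrIV:308118-308239, plus strand; RPL13B at chrXIII:551505-551654, minus strand).
RPL13A: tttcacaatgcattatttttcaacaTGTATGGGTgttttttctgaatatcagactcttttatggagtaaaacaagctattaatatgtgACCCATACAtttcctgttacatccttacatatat
RPL13B: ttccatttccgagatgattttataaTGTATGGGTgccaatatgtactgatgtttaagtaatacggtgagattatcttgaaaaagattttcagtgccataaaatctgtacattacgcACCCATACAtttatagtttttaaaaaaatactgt
The first match begins 281 bases before the start codon in RPL13A and 422 bases before it in RPL13B. RPL42B (chrVIII:383078-383136, minus strand) and RPL38 (chrXII:781615-781673, minus strand), which had the largest fold changes with all libraries, RPL38 through EtOH replicate 3, hold 1 match each.
RPL42B: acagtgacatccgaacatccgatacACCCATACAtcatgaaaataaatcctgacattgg
RPL38: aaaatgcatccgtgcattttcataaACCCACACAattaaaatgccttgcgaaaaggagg
In the 500 bases before the start codon, 36 of 81 members (44.4%) held the motif, 18 of 57 small subunit genes (31.6%) did, and 5.47% of 6000 protein-coding genes did. In the window from 250 bases before to 50 bases after the start, it was found in 9.88% of members and 2.83% of all genes. The letters of 2 elements of ribosome assembly genes were also searched: GATGAG (PAC) was in 22.2% of the members' 500-base windows and 28.3% of all, and AAATTTT (RRPE) in 50.6% and 34.1%.

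In the S10D-labelled strain the response to estradiol was small. In the fit of all 12 libraries, 1 of 81 members passed edgeR's test (RPL9B, lower), 0 rose and 80 were not called, where 4.56% of all genes were called, 2.42% as higher and 2.14% as lower. At an unadjusted p under 0.05, 17 members were lower and 2 higher, and DESeq2 called 6 lower and 0 higher. The median log2 fold change of the members was -0.07, and that of all genes tested was 0.00. RPL9B, which encodes a protein near the stalk base, had 307, 294 and 298 CPM in S10D-labelled E2, against 356, 335 and 341 CPM in S10D-labelled EtOH, with no overlap (-0.20 ± 0.04, adjusted p = 0.0103, edgeR). The count of calls depends on which libraries estimate the spread. Fitted on the 6 S10D-labelled libraries alone, 41 members fell and 6 rose (23.5% of all genes called, 11.5% as higher and 12% as lower). Without reference EtOH replicate 3, 16 fell and 3 rose (16.5% called, 8.42% as higher and 8.04% as lower), and without its replicate 1, 5 fell. Without S10D-labelled EtOH replicate 1, or S10D-labelled E2 replicate 2 or 3, no member was called. By level alone, all 3 E2 values lay below all 3 EtOH values for 47 members, against 18.3% of all genes.

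Of the 6 members that rose in that 6-library fit, 5 lie on chromosome IV (RPL12B, RPL13A, RPL31A, RPL37B and RPP2B), and the other is RPL18B on chromosome XIV. The 13 chromosome IV members had a median of 0.08 there, with 5 called higher. The 68 others had a median of -0.09, with 1 called higher and 41 lower. In the fit of all 12 libraries, chromosome IV genes other than ribosomal protein genes had a median of 0.07. Such nuclear genes on other chromosomes had a median of -0.01. Members held 5.37 ± 0.09% of nuclear counts in S10D-labelled E2 and 5.49 ± 0.05% in S10D-labelled EtOH (SD, n = 3 each; exact permutation test, p = 0.3).

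In the S10D-labelled strain too, the chromosome IV copy lay above its partner in 7 of 7 mixed pairs, by a median log2 difference of response of 0.15 (range 0.10 to 0.27). limma called 4 of the 7 (RPL12, RPL13, RPL31 and RPL37), none of the other 28 member pairs (4 at an unadjusted p under 0.05), and 9.84% of the 61 pairs. RPL13 had an A/B ratio of 0.642, 0.645 and 0.643 in S10D-labelled E2, against 0.568, 0.583 and 0.559 in S10D-labelled EtOH (0.18 ± 0.05, adjusted p = 0.0497). RPL12 had a ratio of 0.609, 0.595 and 0.605 in S10D-labelled E2, against 0.668, 0.675 and 0.662 in S10D-labelled EtOH (-0.15 ± 0.03, adjusted p = 0.0135). Ratios of the groups did not overlap in either pair. Of the 12 settings with 1 library left out, RPL13 was called in 2 (without reference EtOH replicate 1 or 3) and RPL31 in 3 (those and without S10D-labelled EtOH replicate 3). RPL12 was called in 8 and RPL37 in 11. The RPL12 call was lost without S10D-labelled EtOH replicate 1 or 2, or S10D-labelled E2 replicate 2 or 3 (limma, adjusted p = 0.0618 to 0.103). Without reference EtOH replicate 3, 13 member pairs were called, and 34.4% of all 61 pairs. Without S10D-labelled E2 replicate 2 no member pair was called, and without S10D-labelled E2 replicate 3 or S10D-labelled EtOH replicate 1 or 2 only 1 was. Leaving out reference EtOH replicate 2, S10D-labelled E2 replicate 1 or any reference E2 library gave 2.

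The mean log2 ratio of the chromosome IV copy to its partner over the 7 pairs was 0.26, 0.29 and 0.26 in S10D-labelled E2, against 0.11, 0.10 and 0.13 in S10D-labelled EtOH. It was 0.53, 0.49 and 0.51 in reference E2, against 0.08, 0.08 and 0.06 in reference EtOH. Every E2 library lay above every EtOH library of its strain, and the step was smaller in the S10D-labelled strain. The 5 small subunit pairs with 1 copy on chromosome IV also had that copy above its partner in 5 of 5, by medians of 0.16 in the S10D-labelled strain and 0.52 in the reference strain.

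**Figure D3:**
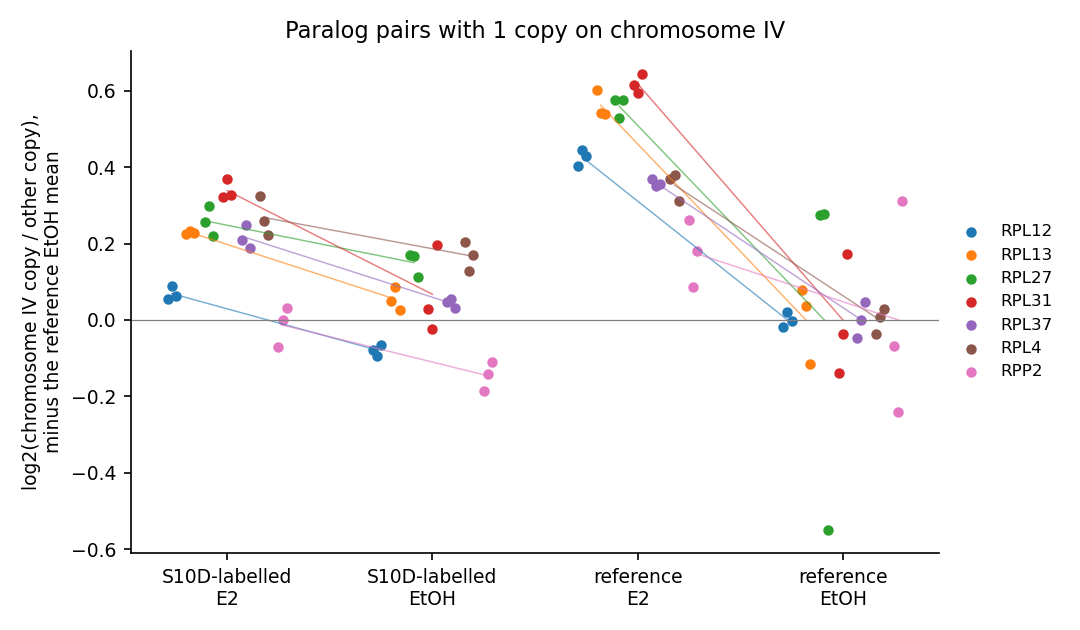
Log2 ratio of the chromosome IV copy to the other copy for 7 paralog pairs, each centred on its own mean in reference EtOH, with a point for each library and lines between group means. All 7 pairs are higher in E2 than in EtOH within each strain, and the low RPL27 point in reference EtOH is replicate 3.

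The test of the difference between these responses, S10D-labelled minus reference, was positive for all 81 members and passed edgeR's threshold for 65 of them. None was called in the other direction, also at an unadjusted p under 0.05 or by DESeq2, and 20.4% of all genes were called, 9.82% as higher and 10.6% as lower. The median difference was 0.45 on the log2 scale, against 0.01 for all genes tested. Of the 68 members off chromosome IV 62 were called, and of the 13 on it 3 were (RPL12B, RPL37B and RPP1B), of which RPL37B lost its call without any of 4 single libraries (adjusted p = 0.0506 to 0.0591). RPL10, whose protein is added last and completes the active subunit, differed by 0.44 ± 0.08 (adjusted p = 0.00194), and RPL42B by 1.05 ± 0.24 (adjusted p = 0.0111). RPL38 differed by 1.28 ± 0.54 and was not called (adjusted p = 0.133). Without reference EtOH replicate 3 its difference was 0.51 and passed the test (adjusted p = 9.24e-08). In that fit 74 members were called, and 33.1% of all genes, 16.5% as higher and 16.7% as lower.

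Among mixed pairs the difference of responses was called for 4 of 7 by limma, against 11.5% of the 61 pairs: RPL13 (-0.39 ± 0.07 for log2 A/B, adjusted p = 0.00177), RPL12 (0.28 ± 0.04, adjusted p = 0.00118), RPL4 (0.25 ± 0.06, adjusted p = 0.0198) and RPL37 (0.19 ± 0.05, adjusted p = 0.0198). In each, the chromosome IV copy gained less on its partner in the S10D-labelled strain. RPL4 and RPL37 lost their calls without several single libraries, RPL4 with adjusted p of 0.06 to 0.0694 and RPL37 with 0.0508 to 0.0694. RPL12 and RPL13 kept theirs in all 12 settings with 1 library left out. No pair without a chromosome IV copy was called (3 at an unadjusted p under 0.05). The called member pairs numbered 2 to 9 when single libraries were left out. Leaving out reference EtOH replicate 2 gave 8, and leaving out its replicate 3 gave 9, where 21.3% of all 61 pairs were called. Leaving out reference E2 replicate 1 or 2, S10D-labelled EtOH replicate 1 or S10D-labelled E2 replicate 3 gave 2.

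**Figure D4:**
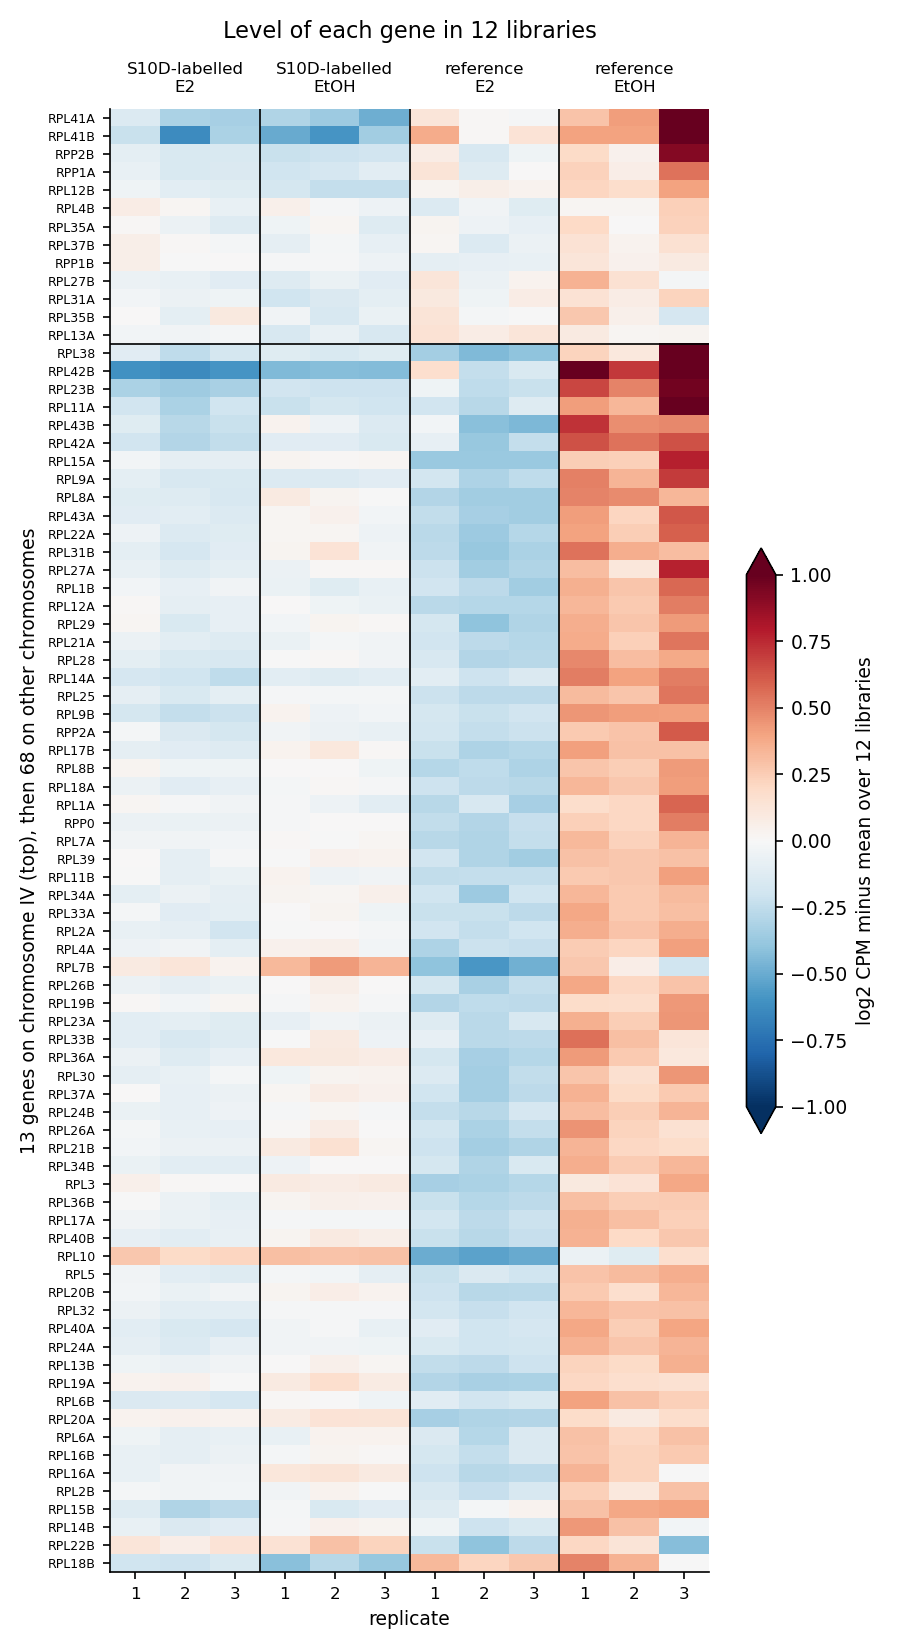
Level of each of the 81 members (rows) in 12 libraries (columns), as log2 CPM minus the gene's mean over all libraries; the colour scale ends at -1 and 1, and rows are ordered by their change in reference E2 within chromosome IV (top 13) and the other chromosomes. Reference EtOH is high in most rows, replicate 3 most of all in RPL38, RPL42B and RPL41B, and RPL10 and RPL7B are high in both S10D-labelled groups.

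In ethanol, most members were lower in the S10D-labelled strain than in the reference strain. edgeR called 72 of 81 lower, 2 higher and 7 not at all, where 58.1% of all genes were called, 26.7% as higher and 31.4% as lower. The median was -0.32, and the median of all genes was -0.03. Members held 5.49 ± 0.05% of nuclear counts in S10D-labelled EtOH and 7.14 ± 0.45% in reference EtOH (SD, n = 3 each; exact permutation test, p = 0.1). Non-coding RNAs listed as signs of the library moved with the strain: all 5 tested were lower, by a median of -2.37 with all libraries. SCR1 had 83, 111 and 123 counts in S10D-labelled EtOH, against 876, 780 and 2360 counts in reference EtOH. In S10D-labelled E2 SCR1 did not follow the members. SCR1 had 361, 215 and 146 counts there, above every S10D-labelled EtOH library, while the median member was slightly lower. These SCR1 counts lay below the 752, 564 and 728 of reference E2, while many members were higher in the S10D-labelled strain. 21S_RRNA had 494, 215 and 116 counts in S10D-labelled E2, overlapping the 123, 124 and 137 of S10D-labelled EtOH. The part of these RNAs in the members' differences was not tested. Leaving out reference EtOH replicate 3 gave 74 lower and 2 higher (65.4% of all genes called, 30.7% as higher and 34.7% as lower).

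RPL42B, RPL41B, RPL38 and RPL41A had the largest strain differences with all libraries. RPL42B had 521, 526 and 525 CPM in S10D-labelled EtOH, against 1537, 1153 and 2056 CPM in reference EtOH (-1.59 ± 0.17, adjusted p = 1.39e-05, edgeR). RPL41B, which encodes the smallest ribosomal protein, had 200.4, 188 and 223 CPM in S10D-labelled EtOH, against 376, 376 and 685 CPM in reference EtOH (-1.23 ± 0.22, adjusted p = 0.000701). RPL41A had 34.1, 32.7 and 29.9 CPM in S10D-labelled EtOH, against 51.2, 56.1 and 89.8 CPM in reference EtOH (-1.03 ± 0.18). For all 3 genes the EtOH libraries of the strains did not overlap. Without reference EtOH replicate 3 the values were -1.36, -0.88 and -0.73, all still called, whereas RPL38, at -1.06 ± 0.38 with all libraries (adjusted p = 0.0381), was -0.30 without it and stayed called. With that library kept, RPL38 lost the call without any S10D-labelled EtOH library (adjusted p = 0.0832 to 0.0879) or without reference E2 replicate 2 (0.0506) or 3 (0.0531).

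RPL10 and RPL7B went the other way. RPL10 had 2796, 2763 and 2786 CPM in S10D-labelled EtOH, against 2180.2, 2086 and 2544 CPM in reference EtOH (0.29 ± 0.06, adjusted p = 0.000745, edgeR). RPL7B, the minor source of a protein needed early in subunit assembly, had 183, 196 and 185 CPM in S10D-labelled EtOH, against 177, 153 and 127 CPM in reference EtOH (0.30 ± 0.09, adjusted p = 0.0118). Both were above every reference library. RPL7B shares 56.9% of its 50-base stretches with other coding sequence, mostly its partner's, so its split from RPL7A is uncertain. Leaving out reference EtOH replicate 3 gave 0.38 for RPL10 and 0.19 for RPL7B, both still called.

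Between the strains in ethanol, limma called 13 of 35 member pairs, and 34.4% of all 61 pairs, which include these 35. Of the 13, 11 were among the 25 pairs without a chromosome IV copy, 1 was among the 7 mixed pairs and 1 among the 3 with both copies there. RPL42 moved most toward A, with a ratio of 0.745, 0.738 and 0.719 in S10D-labelled EtOH, against 0.426, 0.532 and 0.319 in reference EtOH (0.82 ± 0.14, adjusted p = 0.00189). RPL22 moved most toward B, with 3.59, 3.22 and 3.23 in S10D-labelled EtOH, against 4.47, 4.24 and 7.92 in reference EtOH (-0.67 ± 0.19, adjusted p = 0.0202). RPL7 had 2.71, 2.5 and 2.69 in S10D-labelled EtOH, against 3.48, 3.76 and 4.88 in reference EtOH (-0.60 ± 0.11, adjusted p = 0.00216). None of these ratios overlapped. RPL23 (0.51 ± 0.07) leaned toward A, and RPL11 (-0.50 ± 0.14) and RPL14 (-0.38 ± 0.10) toward B. Without reference EtOH replicate 3, RPL11 was at -0.29 and RPL14 at -0.23. RPL11 is among the pairs whose split is uncertain. RPL22 and RPL14 lost their calls without S10D-labelled EtOH replicate 2 (adjusted p = 0.0684 for both) or 3 (0.0547 for RPL22 and 0.0513 for RPL14), and RPL11 without any of those 3 libraries (0.0525 to 0.0749). The values for RPL42, RPL22 and RPL7 were 0.62, -0.38 and -0.46 without reference EtOH replicate 3, all called. In that fit 21 member pairs were called, and 55.7% of all 61 pairs. Without S10D-labelled EtOH replicate 1, 2 or 3 the counts were 8, 6 and 6.

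In estradiol the order of the strains was the opposite for many members. edgeR called 45 of 81 higher in S10D-labelled E2 than in reference E2, 4 lower and 32 not at all, where 54.3% of all genes were called, 27% as higher and 27.3% as lower. The median was 0.16, and that of all genes was -0.01. By summed counts the strains were close in estradiol. The members' share of nuclear counts was 5.37 ± 0.09% in S10D-labelled E2 and 5.14 ± 0.20% in reference E2 (SD, n = 3 each, exact permutation test, p = 0.3). Of the 13 members on chromosome IV 1 was higher (RPP1B) and 1 lower (RPL13A), with a median of -0.10. Chromosome IV genes other than ribosomal protein genes had a median of -0.07, against 0.01 for such nuclear genes on other chromosomes. RPP1B lost its call without S10D-labelled E2 replicate 1 (adjusted p = 0.0788) or 3 (0.053). Without reference EtOH replicate 3 the counts were 55 higher and 11 lower (66.3% of all genes called, 32.8% as higher and 33.4% as lower). The strain comparisons share their libraries with the estradiol comparisons.

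RPL10 had the largest increase in E2, with 2740.5, 2586 and 2628 CPM in S10D-labelled E2, against 1606, 1566 and 1602 CPM in reference E2 (0.74 ± 0.06, adjusted p = 1.32e-07, edgeR). RPL7B had 156, 159 and 150.4 CPM in S10D-labelled E2, against 111, 97.8 and 105 CPM in reference E2 (0.57 ± 0.09). RPL22B, the minor copy of a protein that can be lost without stopping growth, had 209, 202 and 212 CPM in S10D-labelled E2, against 165, 146 and 161 CPM in reference E2 (0.40 ± 0.13, adjusted p = 0.0186). The S10D-labelled libraries were higher in all 3 genes without overlap, and the RPL22B call was lost without reference E2 replicate 2 (adjusted p = 0.0573).

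The 4 genes that were lower in S10D-labelled E2 were RPL42B, RPL18B, RPL15B and RPL13A. RPL42B had 465, 454 and 470.3 CPM in S10D-labelled E2, against 793, 599 and 638 CPM in reference E2 (-0.55 ± 0.17, adjusted p = 0.0188, edgeR). RPL18B had 325, 323 and 336 CPM in S10D-labelled E2, against 467, 434 and 449.8 CPM in reference E2 (-0.46 ± 0.09, adjusted p = 0.0013). RPL15B (-0.20 ± 0.07) and RPL13A (-0.14 ± 0.04) differed less. The RPL42B call was lost without reference E2 replicate 1 (adjusted p = 0.081) or S10D-labelled E2 replicate 2 (0.0501), and that of RPL15B without replicate 2 or 3 of either group (0.0822 to 0.131). In all 4 the strains did not overlap. RPL20A, among the 4 with the largest increase, had 1007, 1008 and 1006 CPM in S10D-labelled E2, against 781, 795 and 802 CPM in reference E2 (0.35 ± 0.04, adjusted p = 3.37e-06). limma called 11 of the 35 member pairs, and 34.4% of all 61 pairs. Among the 11 were 4 of the 7 mixed pairs, with the chromosome IV copy relatively lower in the S10D-labelled strain. Without reference EtOH replicate 3, 23 member pairs were called, and 70.5% of all 61 pairs.

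**Figure D5:**
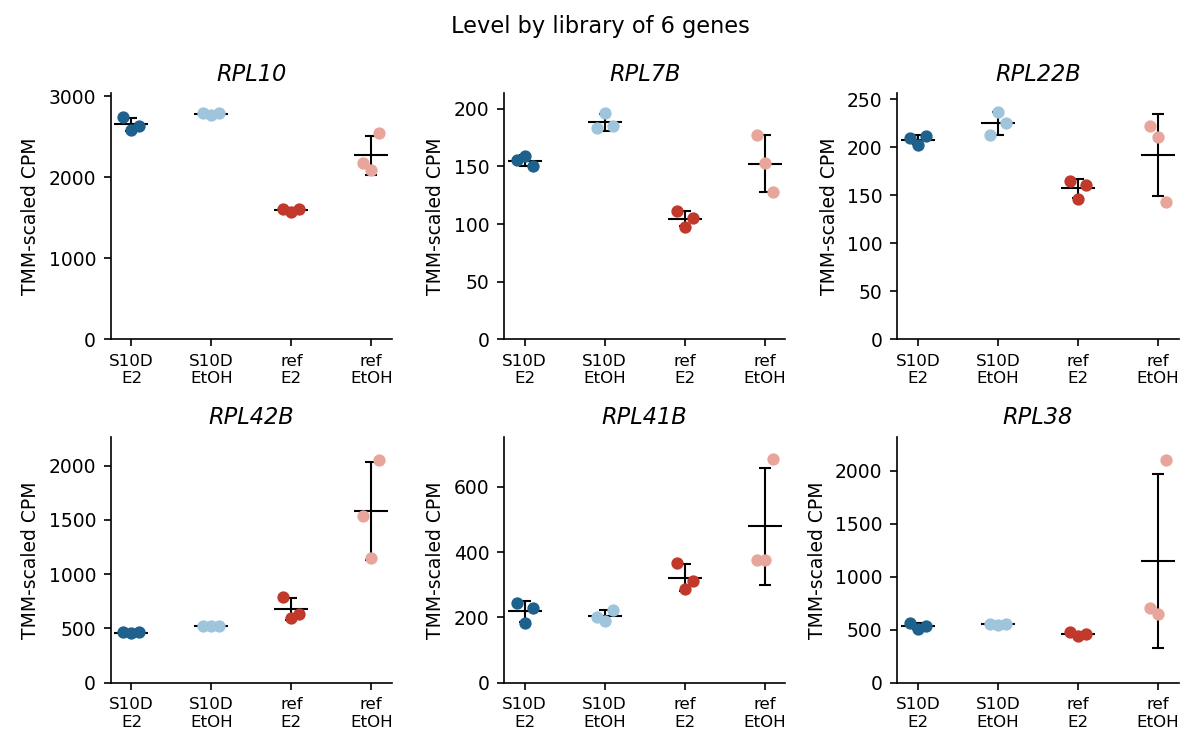
TMM-scaled CPM of 6 members in each library, with the mean and SD of 3, on axes that start at 0. RPL10, RPL7B and RPL22B have their highest mean in S10D-labelled EtOH and their lowest in reference E2, RPL42B and RPL41B are higher in both reference groups, and RPL38 has 1 high value, 2099.6 CPM, in reference EtOH replicate 3.

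Set against the small subunit within each library, the summed counts of the large subunit genes gave a log2 ratio of 0.41 ± 0.01 in S10D-labelled E2, 0.41 ± 0.00 in S10D-labelled EtOH, 0.35 ± 0.01 in reference E2 and 0.32 ± 0.01 in reference EtOH (SD, n = 3 each). The difference in ethanol between the strains was 0.09 (exact permutation test, p = 0.1, the smallest possible). It was 0.026 as a mean over genes of log2 CPM, which gives each gene the same weight.

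Of 63 assembly and export factors, 15 rose and 2 fell in reference E2 against EtOH (edgeR), where 22.4% of all genes rose and 22.2% fell. The share that rose was near that of all genes, and the share that fell was below it. MAK21 (0.47), ARX1 (0.45) and URB2 (0.45), which act on early or exported pre-60S particles, were among the 15, and NIP7 (-0.34) was the larger of the 2 decreases. In the S10D-labelled strain 9 of the 63 rose and 0 fell, where 2.42% of all genes rose and 2.14% fell. The share that rose was above that of all genes. For the chaperones and elongation factors that follow, the shares called in reference E2 were near those of all genes. Of the regulators a larger share rose (7 of 20) and a smaller share fell (3 of 20). Nothing about those lists is read from their counts. Of 19 chaperones, importers and modifying enzymes of these proteins 5 rose and 4 fell in reference E2: SYO1, the carrier of Rpl5 and Rpl11, rose by 0.54 and PUF6, which acts with Rpl43, by 0.54, while EGD1 of the nascent chain-associated complex fell by 0.37. In the S10D-labelled strain 2 of these 19 rose (SYO1 and TSR4), where 2.42% of all genes did.

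Of 20 regulators of ribosomal protein genes, 7 rose and 3 fell in reference E2. The 3 were RAP1 (-0.31 ± 0.05, adjusted p = 0.000115), ABF1 (-0.35 ± 0.06) and HMO1 (-0.23 ± 0.04), which encode DNA-binding proteins of these promoters. Among the 7 were the coactivator IFH1 (0.49), the corepressor CRF1 (0.52) and the kinases RIM15 (0.60) and TOR2 (0.43). In the S10D-labelled strain 1 of 20 rose, TOR2 (0.30), where 2.42% of all genes did. The test of the difference between the responses was passed by RAP1 (0.32), ABF1 (0.27) and HMO1 (0.19) upward and by CRF1 (-0.57) and RIM15 (-0.43) downward.

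Of 12 translation elongation factor genes, 2 were higher and 3 lower in reference E2, near the shares of all genes. HYP2 (-0.40), which encodes the form of factor eIF5A used in air, and TEF2 (-0.32), a gene for elongation factor 1A, fell, and ANB1 (0.84), the low-oxygen partner of HYP2, rose. General stress genes moved opposite to the members in the reference strain: 21 of 24 rose and 2 fell, with a median of 0.87. Of all genes 22.4% rose and 22.2% fell there. CTT1, the cytosolic catalase, rose by 1.64 and HSP12 by 1.25. In the S10D-labelled strain 4 of 24 rose and 1 fell, with a median of 0.06, where 2.42% of all genes rose and 2.14% fell. The test of the difference was passed by 20 of 24, all downward, where 10.6% of all genes were called lower. The part of these genes in the members' levels was not tested.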

How the data were processed

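Poly(A) RNA of 12 yeast libraries was measured. The authors deposited whole-number counts of reads per annotated gene, unnormalized. HTSeq 0.6.1p1, STAR 2.5.3a, cutadapt 1.10 and bcl2fastq 2.20.0.422 are named, with build R64, in the submitters' processing notes; the counting mode and strand setting are not given in the sources used here. Totals were 9362173 to 11806239 counts per library. The 1039 features that matched no annotated gene held at most 0.481% of counts.

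The members, lists and tests were chosen with earlier results of these data known. Counts were scaled by TMM, filtered (filterByExpr, minimum count 10, minimum total 15) and tested in edgeR 4.0.16 (quasi-likelihood, robust, 2-sided, R 4.3.3) with 4 group means, 8 residual degrees of freedom and Benjamini-Hochberg adjustment over 5990 genes. Log2(A/B) per library (prior count 2) was tested with limma 3.58.1 over the 61 A/B-named pairs of the table. DESeq2 1.42.0 was an alternative. Levels are TMM-scaled CPM, computed here. The edgeR and limma steps were tested on simulated data. Values by library are given for the members with the 4 largest and 4 smallest called changes of a comparison, single-copy and stalk genes, the most divergent called pairs and members called against the median; a few that this rule names are given only as counts or ranges. The 500-base promoter window was added after a 250-base window had been searched.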

Additional observations from a re-analysis of the deposited data

Results flagged for a closer look

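The estradiol response differed between the strains, by the test of the difference itself (edgeR, S10D-labelled minus reference), for 65 members, all with the more positive response in the S10D-labelled strain. As examples among these 65, RPL42B differed by 1.05, RPL10 by 0.44, RPL37B by 0.25 and RPP1B by 0.21 on the log2 scale. RPL37B lost its call without any of 4 single libraries. Other members named above were called as well, such as RPL11A (0.84), RPL23B (0.77) and RPL12B (0.35). By limma's test on log2(A/B), 4 member pairs differed, each with 1 copy on chromosome IV: RPL13 by -0.39, RPL12 by 0.28, RPL4 by 0.25 and RPL37 by 0.19. Groups of 3 libraries are too small for the search for single outlying samples, so reference EtOH replicate 3 is given beside the results it touches.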

How the results depend on the processing

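Among fold changes of named members, 1356 of 1444 alternative values kept their direction and call, 47 lost the call, 36 gained it and 5 changed sign; for pair ratios 448 of 512 kept both, 58 lost the call, 5 gained it and 1 changed sign. The values that changed sign were uncalled with all libraries. In reference E2, RPL35B ran from -0.13 without reference EtOH replicate 3 to 0.089 without its replicate 1, and was 0.0059 without reference E2 replicate 2. RPL18B ran from -0.15 without reference EtOH replicate 3, where it was called, to 0.090 without its replicate 1, and was 0.00548 without its replicate 2 and 0.0066 without reference E2 replicate 2. The RPP2 pair's difference of responses ran from -0.077 without reference EtOH replicate 2 to 0.20 without its replicate 3.

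The count of members called for S10D-labelled E2, 1 with all libraries, moved most as a ratio: 6 with DESeq2, 3 with DESeq2 size factors in edgeR, 2 with TMM without ribosomal protein genes and 47 with the 6 libraries alone. With a log2 fold change of at least 0.5 required, 0 remained there, 28 for the difference of responses, 12 for the strains in EtOH and 3 in E2. limma without trend and robust fit called 2 member pairs in S10D-labelled E2. Large over small subunit as a mean of log2 CPM differed by 0.017 for S10D-labelled E2 against EtOH, 0.026 for the strains in EtOH and 0.014 in E2. The causes were not tested.

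Leaving out single libraries gave 69 to 77 called members in reference E2, 0 to 19 in S10D-labelled E2, 59 to 74 for the difference, 68 to 76 for the strains in EtOH and 38 to 66 in E2. Called member pairs numbered 8 to 15, 0 to 13, 2 to 9, 6 to 21 and 9 to 23 in the same order.

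Same-numbered libraries correlated by 0.0047 to 0.20 in their deviations from group means, and in no comparison were all 3 above 0.1. All these correlations were positive but weak, so they cannot decide whether the numbers pair libraries. With the replicate number as a block, 74 members were called in reference E2, 2 in S10D-labelled E2, 66 for the difference, 73 for the strains in EtOH and 50 in E2.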
